A study of Mus musculus with 10 samples.

Results

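The small leucine-rich proteoglycans were represented by 7 genes, Dcn, Bgn, Aspn, Lum, Fmod, Prelp and Ogn, chosen by name and matched to the array through the symbol that the platform annotation gives each probe set. They had 18 of the 45101 probe sets and made up 7 of the 18193 genes with a probe set of their own. Distal colorectum, cut about 1 cm above the anus, was taken from C57BL/6J mice. There were 3 irradiated Pdgfc-/- mice, 3 irradiated Pdgfc+/+ mice, 2 unirradiated Pdgfc-/- mice and 2 unirradiated Pdgfc+/+ mice, called knockout and wild type here. Irradiated mice had a local γ-ray dose of 25 Gy, given at 2.14 Gy/min under 5% chloral hydrate, and the tissue was collected 8 weeks afterwards. Age and sex are not given in the sources used here, nor how the Pdgfc deletion was made. The labels call the replicates biological, and 1 array was hybridised per sample. Pdgfc encodes a secreted ligand of PDGF receptor alpha, which fibroblasts carry.

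Small leucine-rich proteoglycans are secreted proteins whose core is a curved stack of leucine-rich repeats. Most carry chondroitin, dermatan or keratan sulphate chains. They bind collagen fibrils and set fibril width and spacing, and several also bind growth factors such as TGF-beta. In the gut wall they are made mainly by fibroblasts of the mucosa and submucosa and belong to the matrix that thickens in fibrosis. Decorin (Dcn), biglycan (Bgn) and asporin (Aspn) form class I of the family, lumican (Lum), fibromodulin (Fmod) and PRELP (Prelp) class II, and osteoglycin (Ogn) class III.

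Many of these genes lie side by side. In the RefSeq gene order of the GRCm38.p6 assembly Dcn was followed by Lum, Kera and Epyc, and Prelp lay between Optc and Fmod. Aspn and Ogn lay in the run Ecm2, Aspn, Omd, Ogn. Bgn stood apart from other family members, on the X chromosome. The RefSeq promoter table of the same build held 5 of the 7 genes; Dcn and Lum had no entry. Shown are the 250 bases before the start for Ogn and Aspn, the pair of members whose signals ran most alike, and for Bgn, the member with the smallest p between irradiated genotypes. Capitals mark every match, on either strand, to TATAAA (the letters of a TATA box), CCAAT (the box that NF-Y binds), GGGCGG (a GC box), TGANTCA (an AP-1 site), CAGAC (a SMAD element) or TTCNNNGAA (a STAT site).
Ogn (chr13:49607765-49608014, plus strand): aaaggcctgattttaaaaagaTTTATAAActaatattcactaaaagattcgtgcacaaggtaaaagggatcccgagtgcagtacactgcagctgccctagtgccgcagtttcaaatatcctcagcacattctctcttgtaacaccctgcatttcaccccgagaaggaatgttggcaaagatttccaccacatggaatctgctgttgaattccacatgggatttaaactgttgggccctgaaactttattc
Aspn (chr13:49544193-49544442, plus strand): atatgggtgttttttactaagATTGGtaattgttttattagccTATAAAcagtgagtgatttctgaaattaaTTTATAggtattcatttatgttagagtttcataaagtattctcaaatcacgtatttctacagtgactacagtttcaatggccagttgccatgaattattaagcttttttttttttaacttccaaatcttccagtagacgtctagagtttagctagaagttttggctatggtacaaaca
Bgn (chrX:73483351-73483600, plus strand): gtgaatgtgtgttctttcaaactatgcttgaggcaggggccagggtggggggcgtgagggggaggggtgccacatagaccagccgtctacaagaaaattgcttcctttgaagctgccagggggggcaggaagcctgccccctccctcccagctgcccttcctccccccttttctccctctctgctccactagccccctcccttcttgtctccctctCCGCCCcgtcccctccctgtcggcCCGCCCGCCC
The Ogn window held the TATA letters on both strands, in overlapping matches that began 229 and 227 bases before the start. The Aspn window held them at 207 and 178 bases before the start, and a CCAAT match on the other strand at 229. TATAAA occurred in 12.4% and CCAAT in 33.8% of all 32851 windows of this length. The Bgn window held neither; it had 3 GC box matches on the minus strand, of which those beginning 10 and 6 bases before the start overlapped, and GGGCGG occurred in 32.7% of all windows. GC content was 42% for Ogn, 30% for Aspn and 64.4% for Bgn, against a median of 52.4% over all windows. These matches describe letters only.

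Values are MAS5 signals on the log2 scale, as deposited, so a difference of 1 is a 2-fold difference in signal. A gene was read from its brightest probe set. Array medians lay between 6.64 and 7.18, and arrays of 1 group correlated at r = 0.88 to 0.97 across the genes tested. Pdgfc, the targeted gene, lay at 7.15, 6.26 and 7.10 in irradiated knockout, against 8.56, 8.75 and 8.67 in irradiated wild type, and at 6.42 and 5.62 in unirradiated knockout, against 7.01 and 7.50 in unirradiated wild type. The labels do not place its probes relative to the deletion, so the remaining signal checks nothing. Xist and Y-linked transcripts split the arrays by sex. The female pattern was seen in replicate 1 of irradiated knockout and in each of the 3 irradiated wild-type arrays, and the male pattern on the other 6 arrays. Sex and irradiation therefore cannot be told apart in wild type by comparing its groups alone. Signals of the 3′ minus the 5′ Gapdh control probe set, which follow RNA integrity, lay at -0.54 to -0.35 on irradiated arrays and -0.32 to 0.02 on unirradiated ones. The same measure for beta-actin overlapped, at 0.44 to 0.58 on irradiated arrays and 0.35 to 0.66 on unirradiated ones. The part of RNA integrity in the results was not tested. Arrays of bulk tissue cannot tell more cells of a type from more RNA per cell.

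In both genotypes 5 of the 7 proteoglycan genes, Dcn, Bgn, Aspn, Lum and Ogn, were higher after irradiation. The brightest probe set of each lay above the array median on all 10 arrays. Lum had the largest difference of the members and Aspn the smallest of these 5. In limma over 12568 genes, 5 of the 6 members tested were higher at an adjusted p under 0.05 in knockout, where 14% of all genes were called higher, and 5 of 6 in wild type, where 15.8% were. The median over the 6 was 1.55 log2 units in knockout, against 0.01 over all genes, and 2.15 in wild type, against 0.07. All 6 irradiated arrays lay above all 4 unirradiated ones for these 5 genes, as they did for 15.4% of genes tested. Every p from limma below is adjusted by Benjamini-Hochberg over all genes tested unless called unadjusted, errors of differences are SE, and replicates are listed in the order 1 to 3.

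**Figure D1:**
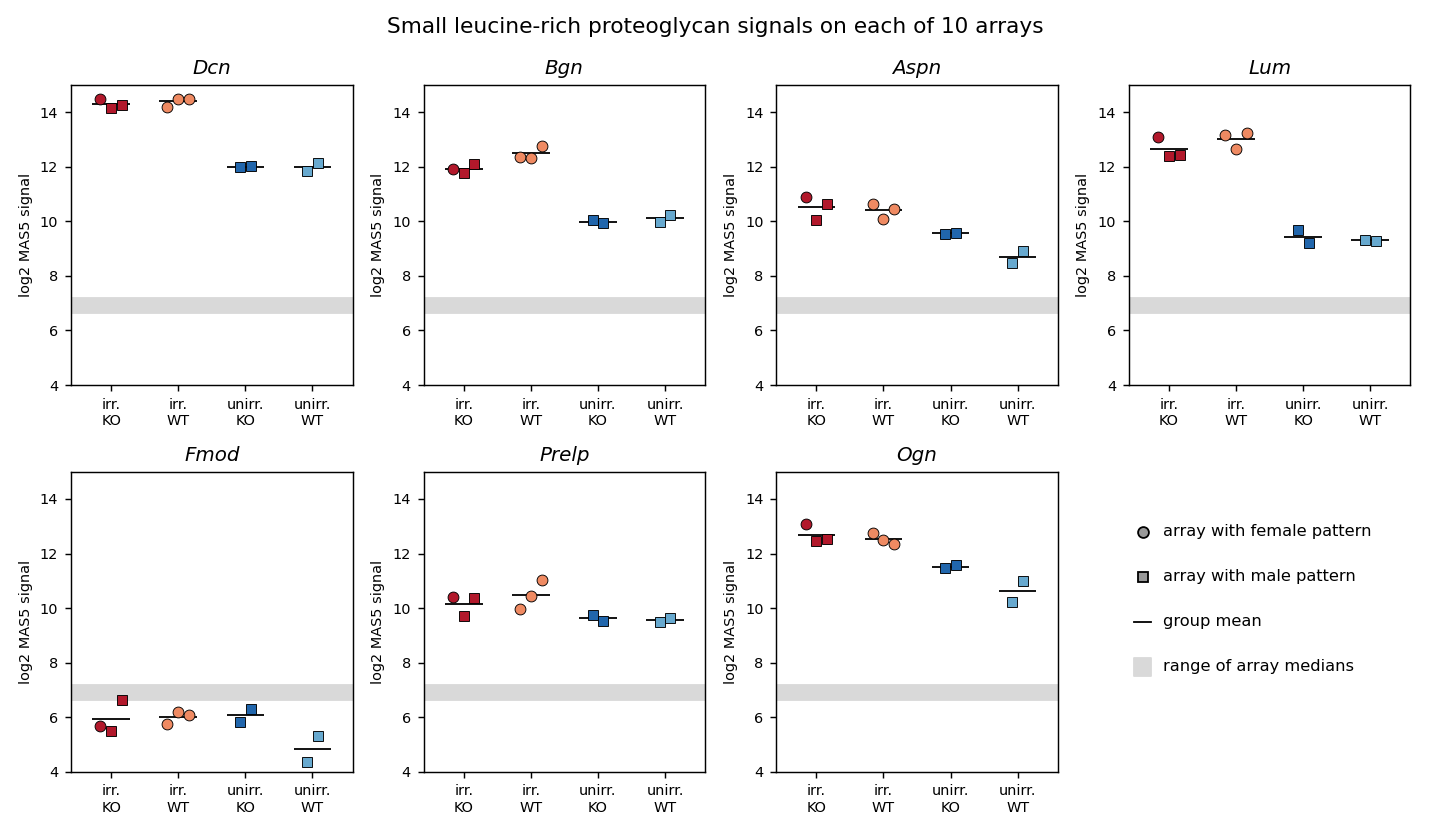
Log2 MAS5 signal of the brightest probe set of each gene (y axis) on every array, by group (x axis: irradiated knockout, irradiated wild type, unirradiated knockout, unirradiated wild type). Circles are arrays with the female pattern, squares arrays with the male pattern, lines group means and the grey band the range of array medians; irradiated arrays stand clear of unirradiated ones for Dcn, Bgn, Aspn, Lum and Ogn, and Fmod lies below the array median throughout.

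Dcn, which binds collagen fibrils and TGF-beta, had signals of 14.47, 14.16 and 14.28 in irradiated knockout, against 11.98 and 12.03 in unirradiated knockout. In wild type it had 14.18, 14.50 and 14.50 after irradiation, against 11.84 and 12.15 without it. The SD within a group was 0.04 to 0.22, and the irradiated and unirradiated arrays did not overlap. Dcn rose by 2.30 ± 0.16 in knockout (4.92-fold, adjusted p = 7.3e-05) and by 2.40 ± 0.16 in wild type (5.27-fold, adjusted p = 1.2e-04). By p it ranked 8 of 12568 genes in knockout and 3 in wild type, and by size of rise 710 and 631. Its dimmer probe set was above the array median on the 6 irradiated arrays and on none of the 4 unirradiated ones, so it entered a fit of every probe set only through the groups where it was high. Its differences there, 1.38 in knockout and 2.44 in wild type, are a description.

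Bgn, the closest relative of decorin, also binds collagen and, as a soluble fragment, toll-like receptors of macrophages. Its signals were 11.92, 11.77 and 12.09 in irradiated knockout, against 10.04 and 9.94 in unirradiated knockout. In wild type they were 12.37, 12.32 and 12.77 after irradiation, against 9.98 and 10.23 without it. Bgn rose by 1.94 ± 0.17 in knockout (3.83-fold, adjusted p = 1.6e-04) and by 2.38 ± 0.17 in wild type (5.22-fold, adjusted p = 1.5e-04). All 3 of its probe sets lay above the array median on every array, and the other 2 rose by 2.05 and 2.71 in knockout and by 2.39 and 3.16 in wild type (adjusted p = 3.1e-04 or less). In irradiated knockout the female-pattern array, at 11.92, lay between the 2 with the male pattern, at 11.77 and 12.09.

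Aspn, a class I member that carries a run of aspartate in place of sulphated chains, had 10.90, 10.03 and 10.62 in irradiated knockout, against 9.55 and 9.57 in unirradiated knockout. In wild type it had 10.65, 10.10 and 10.44 after irradiation, against 8.47 and 8.90 without it. The lowest irradiated array, replicate 2 of irradiated knockout, stood 0.47 above the highest unirradiated one. Aspn rose by 0.96 ± 0.26 in knockout (1.94-fold, adjusted p = 0.027) and by 1.72 ± 0.26 in wild type (3.29-fold, adjusted p = 0.0022). Its other probe set, also above the array median on every array, did not pass, with differences of 0.47 ± 0.42 in knockout (adjusted p = 0.46) and 0.78 ± 0.42 in wild type (adjusted p = 0.22). The call in knockout was also lost in the fit with the sex pattern (0.77, adjusted p = 0.082) and without replicate 1 or 3 of irradiated knockout or either replicate of unirradiated knockout (0.77 to 0.97, adjusted p = 0.075 to 0.13). With the probe sets of a gene averaged, Aspn was called in wild type and not in knockout.

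Lum, which regulates collagen fibril assembly in cornea, skin and other connective tissue, had 13.10, 12.40 and 12.43 in irradiated knockout, against 9.67 and 9.22 in unirradiated knockout. In wild type it had 13.18, 12.66 and 13.25 after irradiation, against 9.32 and 9.29 without it. The nearest irradiated and unirradiated arrays were 2.73 apart, the widest gap of the 7 genes. Lum rose by 3.20 ± 0.25 in knockout (9.19-fold, adjusted p = 1.2e-04) and by 3.73 ± 0.25 in wild type (13.2-fold, adjusted p = 1.3e-04). By size of rise it ranked 399 of 12568 genes in knockout and 241 in wild type.

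Prelp, a heparin-binding member thought to tie basement membranes to collagen, gave a smaller difference that did not pass the threshold. It had 10.39, 9.72 and 10.38 in irradiated knockout, against 9.74 and 9.53 in unirradiated knockout, and the groups overlapped. In wild type it had 9.95, 10.44 and 11.02 after irradiation, against 9.48 and 9.63 without it, and the groups did not overlap, as for 30.8% of genes that lay entirely higher. The difference was 0.53 ± 0.30 in knockout (adjusted p = 0.22) and 0.92 ± 0.30 in wild type (adjusted p = 0.052). The wild-type value was past the threshold with replicate 1 of irradiated wild type left out (1.18, adjusted p = 0.019) or with replicate 2 of irradiated knockout left out (0.92, adjusted p = 0.031). A second Prelp probe set, near or below the array median, read 5.90, 5.30 and 3.22 in irradiated knockout, against 2.89 and 3.56 in unirradiated knockout. It read 6.99, 6.55 and 7.35 in irradiated wild type, against 3.69 and 3.89 in unirradiated wild type, so by irradiation it separated the wild-type groups and not the knockout groups. Within each condition its knockout arrays also lay below its wild-type arrays, at signals that exceeded the array median on 1 array. Of all genes tested, each read from its brightest probe set, 4.04% lay entirely lower in knockout after irradiation and 18.9% without it. With the probe sets of a gene averaged, Prelp rose by 2.04 in wild type (adjusted p = 0.0061), a mean that takes in this dim probe set.

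Ogn, a class III member found around collagen fibrils in many connective tissues, had 13.06, 12.47 and 12.52 in irradiated knockout, against 11.47 and 11.57 in unirradiated knockout. In wild type it had 12.75, 12.51 and 12.34 after irradiation, against 10.24 and 10.98 without it. Ogn rose by 1.17 ± 0.25 in knockout (2.24-fold, adjusted p = 0.0094) and by 1.92 ± 0.25 in wild type (3.79-fold, adjusted p = 9.8e-04). The second probe set, also above the array median on every array, rose by 1.41 ± 0.24 in knockout and 2.45 ± 0.24 in wild type (adjusted p = 0.0040 and 3.3e-04). Without replicate 1 or 2 of unirradiated knockout the knockout call was lost, at 1.12 and 1.21 (adjusted p = 0.069 and 0.053).

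Fmod, which acts in collagen fibril assembly, best known from tendon, was not measurable as a level. None of its 6 probe sets lay above the array median on any array, and it failed the filter for testing. The brightest read 5.69, 5.49 and 6.63 in irradiated knockout, against 5.81 and 6.32 in unirradiated knockout, and 5.75, 6.19 and 6.08 in irradiated wild type, against 4.37 and 5.33 in unirradiated wild type. Over all 6 probe sets the signals ran from 2.82 to 6.63 in irradiated knockout and from 3.01 to 6.51 in irradiated wild type, and from 1.27 to 6.32 in unirradiated knockout and from 3.12 to 5.92 in unirradiated wild type. With no filter on dim genes the brightest had a difference of -0.13 ± 0.51 in knockout (adjusted p = 0.91) and of 1.16 ± 0.51 in wild type (adjusted p = 0.17).

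**Figure D2:**
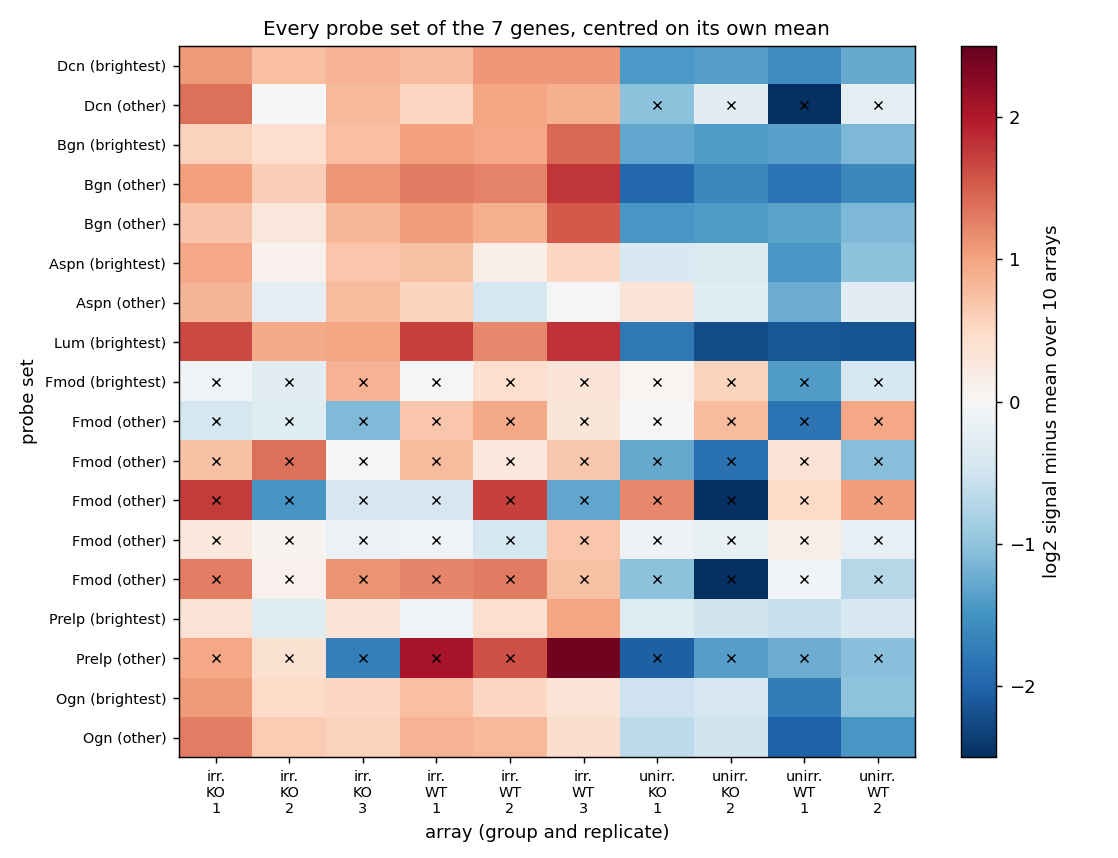
Each row is 1 of the 18 probe sets and each column 1 array by group and replicate; colour is the log2 signal minus the row's mean over the 10 arrays, and crosses mark signals at or below the array median. All 3 Bgn and both Ogn rows split the irradiated from the unirradiated columns, and all 6 Fmod rows are crossed throughout.

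The differences were also taken with sex accounted for. In a fit of the male-pattern arrays alone, 2 irradiated knockout arrays were compared with 2 unirradiated knockout arrays. The 2 unirradiated wild-type arrays were also in that fit and entered its estimate of the spread. There 4 of the 6 members tested were higher in knockout (Dcn 2.22, Bgn 1.94, Lum 2.97 and Ogn 0.98, adjusted p = 3.9e-04 to 0.042), where 7.5% of all genes were. With the sex pattern as a covariate the same 4 genes were called in knockout, where 8.86% of all genes were. In wild type that fit called Dcn (2.15 ± 0.26), Bgn (2.40 ± 0.30) and Lum (3.04 ± 0.34, adjusted p = 0.037 to 0.040), 3 of 6 members, where 0.119% of all genes, 15 of 12568, were called higher. Aspn and Ogn had 1.15 ± 0.39 and 1.36 ± 0.36 in that fit (adjusted p = 0.28 and 0.17). The covariate rests on 1 female-pattern array of irradiated knockout.

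The knockout was compared with the wild type next, within each condition. After irradiation no member passed the threshold, and 0 of all 12568 genes did (0%). At an unadjusted p under 0.05 limma found 1 member, Bgn, and 3.98% of genes. Member differences, knockout minus wild type, ran from -0.56 for Bgn to 0.15 for Ogn, with a median of -0.20. Bgn had -0.56 ± 0.15 (95% interval -0.90 to -0.22, unadjusted p = 0.0045, adjusted p = 1.00). On the brightest Bgn probe set each irradiated knockout array lay below each irradiated wild-type array, as for 4.04% of genes tested, each read from its brightest probe set. The other 2 Bgn probe sets separated the groups in the same direction. Among female-pattern arrays alone, the single knockout array minus the mean of the 3 wild-type arrays was -0.57 for Bgn, a value with no knockout spread and so given without a test. Lum, the member with the next smallest p, had -0.39 ± 0.23 (95% interval -0.89 to 0.12, adjusted p = 1.00). The knockout array with the female pattern, at 13.10, lay within the wild-type range of 12.66 to 13.25, and those with the male pattern, at 12.40 and 12.43, lay below it. The female-pattern knockout array minus the mean of the 3 wild-type arrays was 0.07 for Lum, again without a test. For Dcn the interval was -0.40 to 0.22.

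Without irradiation 0 of 6 members passed in limma, where 1.23% of all genes did, and Ogn and Aspn had an unadjusted p under 0.05, as did 16.6% of genes. Ogn lay at 11.47 and 11.57 in unirradiated knockout, against 10.24 and 10.98 in unirradiated wild type, and its second probe set at 10.88 and 11.03, against 9.51 and 10.08. The Ogn difference was 0.91 ± 0.27 (1.88-fold, unadjusted p = 0.0073, adjusted p = 0.14), and that of the second probe set 1.16 ± 0.27 (adjusted p = 0.077). With the lowest of the 4 arrays left out, replicate 1 of unirradiated wild type, the Ogn difference was 0.54 (adjusted p = 0.36). Aspn lay at 9.55 and 9.57 in unirradiated knockout, against 8.47 and 8.90 in unirradiated wild type, a difference of 0.88 ± 0.29 (unadjusted p = 0.012, adjusted p = 0.17). The second Aspn probe set read 9.87 and 9.25 in unirradiated knockout, against 8.32 and 9.30 in unirradiated wild type; there the groups overlapped, with 0.75 ± 0.46 (unadjusted p = 0.13, adjusted p = 0.45). On their brightest probe sets these 2 of 6 members had knockout arrays entirely above wild-type ones, as did 28.9% of genes. The other 4 tested had differences between -0.11 and 0.14. All 4 unirradiated arrays had the male pattern. The summed linear signal of 12 striated muscle markers was 8460 and 13653 in unirradiated knockout, against 707 and 982 in unirradiated wild type, and that of 8 adipocyte markers 6775 and 9005, against 1989 and 2039; their part in the Ogn and Aspn values was not tested.

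The irradiation differences did not differ between genotypes for any member at the threshold (interaction: 0 of 6 members, where limma called 0.207% of all genes; 0 members and 10.4% of genes at an unadjusted p under 0.05). All 6 interaction values, knockout minus wild type, were below 0, from -0.76 to -0.10, with a median of -0.49 against -0.05 over all genes; the 6 share the same arrays. Ogn had -0.76 ± 0.35 (95% interval -1.54 to 0.02, unadjusted p = 0.054, adjusted p = 0.49), which was -0.39 without replicate 1 of unirradiated wild type. Its second probe set had -1.04 ± 0.34 (-1.80 to -0.27, unadjusted p = 0.013, adjusted p = 0.32), and after quantile normalization the brightest had -0.79 ± 0.33 (unadjusted p = 0.040, adjusted p = 0.50). For Aspn the interaction was -0.76 ± 0.37 (-1.58 to 0.07, adjusted p = 0.52), and -0.31 ± 0.59 on its second probe set (adjusted p = 0.89). With the sex pattern in the fit the brightest probe sets of Ogn and Aspn had -0.38 ± 0.36 and -0.38 ± 0.39, and Dcn had 0.07 ± 0.26.

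**Figure D3:**
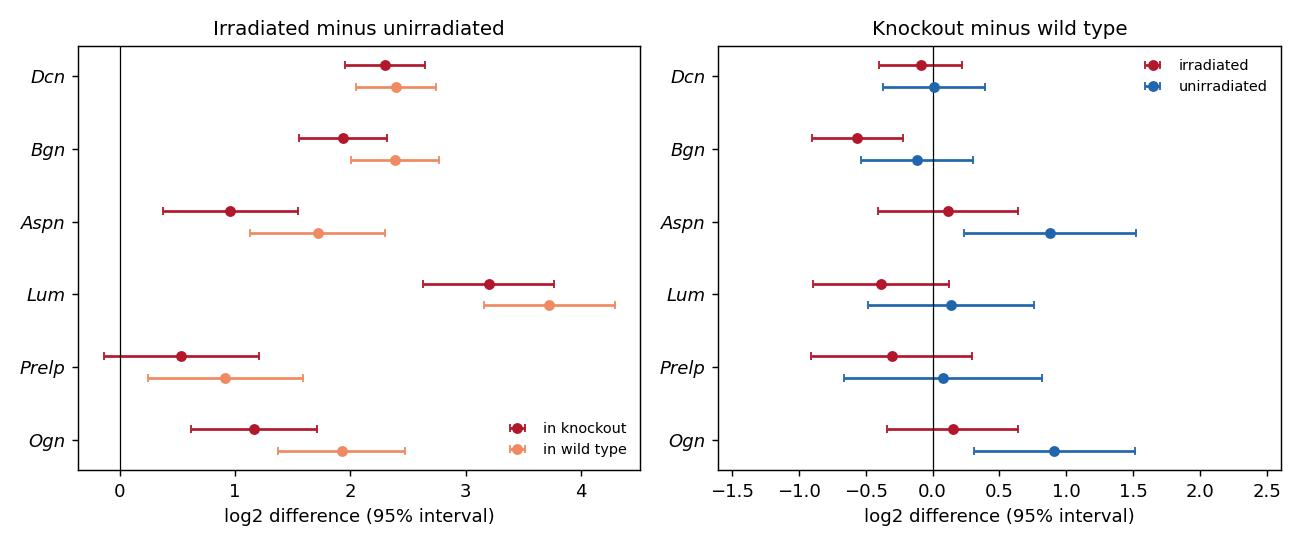
Log2 difference with its 95% interval from limma (x axis) for the 6 members tested (y axis); left, irradiated minus unirradiated in knockout and in wild type, right, knockout minus wild type among irradiated and among unirradiated arrays. On the left the knockout interval of Prelp includes 0 and the other intervals do not; on the right the intervals of Bgn among irradiated arrays and of Ogn and Aspn among unirradiated arrays do not include 0, and none of those 3 passed after adjustment.

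The members differed among themselves. As the distance between 2 genes the root-mean-square difference of their log2 signals over the 10 arrays was used, after each gene was centred on its own mean. Aspn and Ogn were closest, at 0.21, and Dcn and Bgn next, at 0.25. Lum and Prelp were farthest apart, at 1.38. Among the irradiated knockout arrays all 6 members tested were lowest in replicate 2, which had the highest colonocyte marker sum of the 3 and the lowest fibroblast, macrophage, endothelium, adipocyte, squamous and striated muscle sums. Among the irradiated wild-type arrays Dcn, Bgn, Lum and Prelp were highest in replicate 3, where Ogn was lowest, although for Dcn replicates 2 and 3 both read 14.50. By the same distance, the genes nearest to the mean of the 6 members, out of 12123, were Rcn3, a calcium-binding protein of the secretory pathway that takes part in collagen production (0.12), the endothelial sialomucin Emcn (0.12), the IGF-binding proteins Igfbp5 (0.13) and Igfbp7 (0.15), the receptor tyrosine kinase Axl (0.14), the annexin Anxa5 (0.16), the zinc finger gene Zfp521 (0.17) and the galectin Lgals1 (0.18). Bgn was nearest to the collagen genes Col5a2 and Col1a2 (0.19 each), and Dcn to Vim (0.19) and Reln (0.20). Lum was nearest to the microfibril gene Mfap5 (0.28) and the macrophage lectin gene Mgl2 (0.29). Ogn and Aspn shared Gas1 as their nearest gene (0.17 and 0.12), followed by Emc9 for Ogn (0.19) and Fkbp7 for Aspn (0.16). Prelp was nearest to Septin6 (0.13) and Mfge8 (0.14).

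Of 11 other genes of the family, 9 had a probe set and 3 could be tested. Epyc (epiphycan), next to Lum and Kera, read 6.92, 6.04 and 6.54 in irradiated knockout, against 4.37 and 1.05 in unirradiated knockout, and 6.47, 7.29 and 9.30 in irradiated wild type, against 2.46 and 4.92 in unirradiated wild type. Epyc entered the fit only through 2 arrays of irradiated wild type, a group where it was high, and lay below the array median on every knockout array. Its fitted differences, 3.79 ± 1.2 in knockout and 4.0 ± 1.2 in wild type (adjusted p = 0.047 and 0.038), are therefore given as a description and not as a test. Optc had -0.54 in knockout and -0.57 in wild type and Podn -0.26 and 0.37, none past the threshold (adjusted p = 0.29 to 0.54). Omd and Ecm2, which flank Aspn, failed the filter. Omd read 6.89, 5.61 and 6.22 in irradiated knockout, against 5.34 and 3.47 in unirradiated knockout, and 6.77, 5.36 and 6.24 in irradiated wild type, against 5.28 and 4.24 in unirradiated wild type, all below the array median.

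Of 19 tested enzymes that build the sulphated chains, 6 were higher and 1 lower in irradiated knockout, and 8 higher and 1 lower in irradiated wild type. Over all genes 14% were higher and 9.5% lower in knockout, and 15.8% higher and 8.34% lower in wild type. Counts for the lists that follow stand against the same shares. Dse, the epimerase that turns chondroitin into dermatan sulphate, had differences of 2.45 ± 0.46 in knockout and 2.29 ± 0.46 in wild type. Its mean was 5.77 (SD 0.03) in unirradiated knockout and 6.16 (SD 0.95) in unirradiated wild type, below the lowest array median of 6.64. Dse passed the filter only with irradiated arrays, where it was high, so its differences are a description. The same holds for Csgalnact1, named after its values were seen. Its means were 6.13 in unirradiated and 7.34 in irradiated knockout, and 5.07 in unirradiated and 7.79 in irradiated wild type. The counts of enzymes called higher take in Dse in both genotypes and Csgalnact1 in wild type. Chst14, the sulphotransferase that acts after Dse, rose by 0.95 ± 0.19 in knockout and 0.70 ± 0.19 in wild type. Fam20b, the kinase that phosphorylates the xylose of the linker, was the one that fell, by 0.67 ± 0.13 and 0.72 ± 0.13. The list's median was 0.73 in knockout and 0.50 in wild type.

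The collagens that these proteins coat moved together. All 11 tested genes of collagens I, III, V, VI, XII and XIV were higher in both genotypes, with medians of 1.45 in knockout and 1.41 in wild type. Col1a2 rose by 2.01 ± 0.16 and 2.08 ± 0.16, Col3a1 by 1.45 ± 0.16 and 1.50 ± 0.16, and Col5a2 by 1.87 ± 0.19 and 2.48 ± 0.19. Other proteoglycans were higher for 7 of 15 in each genotype and lower for none: the matrix proteoglycan Vcan rose by 2.21 ± 0.30 in both, the cell-surface Gpc3 by 1.78 ± 0.35 and 1.86 ± 0.35, and Srgn, of leukocyte granules, by 3.98 ± 0.35 and 3.86 ± 0.35.

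Proteases and helpers that process or cut these proteins were higher for 14 of 19 genes in each genotype. Pcolce, which enhances the procollagen proteinase, rose by 1.89 ± 0.25 in knockout and 1.88 ± 0.25 in wild type, Mmp2 by 1.77 ± 0.26 and 2.10 ± 0.26, and Htra1 by 1.94 ± 0.22 and 1.63 ± 0.22. Adamts15, named after its values were seen, was the one gene called lower; it fell by 0.96 in knockout. Signalling partners had 5 of 21 higher and 2 lower in knockout and 4 higher and 2 lower in wild type. Over all genes 14% were higher and 9.5% lower in knockout, and 15.8% higher and 8.34% lower in wild type, so the wild-type shares of this list were close to those of all genes. Tgfbr2, a TGF-beta receptor, rose by 1.03 ± 0.13 and 0.99 ± 0.13 and the ligand Bmp4 by 1.75 ± 0.24 and 1.66 ± 0.24, and the ligand Bmp2 fell by 1.40 ± 0.23 and 1.08 ± 0.23; the other gene that fell, named after its values were seen, was Lrp6 in knockout and Met in wild type.

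**Figure D4:**
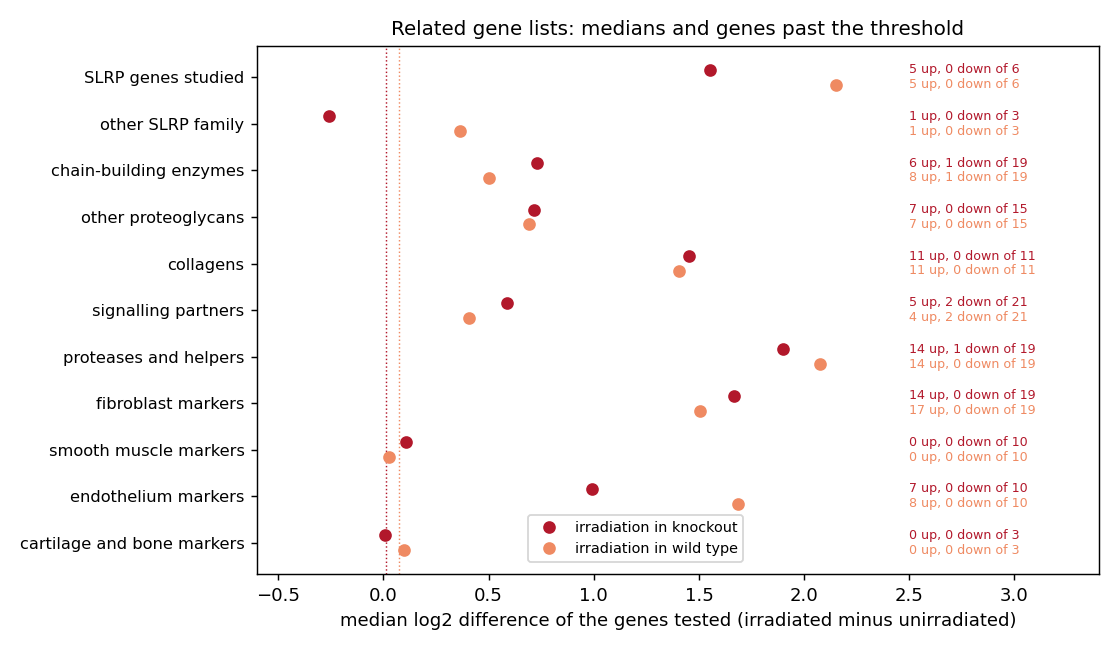
Median log2 difference, irradiated minus unirradiated (x axis), over the tested genes of each list (y axis), with the number of genes past an adjusted p of 0.05 in each direction at the right; red is knockout, orange wild type, and dotted lines are the medians of all genes. SLRP stands for small leucine-rich proteoglycan. Collagens had 11 of 11 genes higher in both genotypes and smooth muscle markers 0 of 10. Counts take in genes that entered the tests only through irradiated arrays, such as Epyc, the 1 gene higher in the other SLRP family list.

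Markers of several cell types moved with the proteoglycans. The 19 fibroblast markers held none of the 7 proteoglycans but shared Col1a1, Col1a2 and Col3a1 with the collagen list above, so the lists overlap. Of these markers 14 were higher in irradiated knockout and 17 in irradiated wild type, Mfap5 by 3.14 ± 0.38 and 3.39 ± 0.38. Their summed linear signal was 51949 to 60071 in irradiated knockout, against 20608 and 26029 in unirradiated knockout, and 60062 to 71427 in irradiated wild type, against 23249 and 25614 in unirradiated wild type. Smooth muscle markers had 0 of 10 past the threshold in either genotype, with medians of 0.11 and 0.03; Acta2 had 0.10 ± 0.12 and 0.08 ± 0.12. Cartilage and bone markers, of tissues rich in these proteoglycans, had 0 of 3 past it, and 1 to 3 of their 9 measured genes lay above the array median on any array. Endothelial markers were higher for 7 of 10 in knockout and 8 of 10 in wild type, macrophage markers for 10 of 10 in both, squamous epithelium markers for 11 and 8 of 11, adipocyte markers for 5 of 8 in both and striated muscle markers for 2 and 6 of 12. Of the 11 squamous markers 1 or 2 lay above the array median on unirradiated arrays, against 9 to 11 on irradiated ones. For the 8 adipocyte markers it was 4 or 5, against 6 to 8. Most squamous markers therefore entered the tests only through irradiated arrays, where they were high, and their counts are a description. Of the 12 striated muscle markers, 2 lay above the array median on unirradiated wild-type arrays and 10 on unirradiated knockout arrays. Of the 10 macrophage markers, 8 or 9 did on unirradiated wild-type arrays and 6 to 8 on unirradiated knockout arrays. The adipocyte, striated muscle and macrophage lists thus also hold genes that were dim without irradiation. Absorptive colonocyte markers were lower for 7 and 8 of 12, and enteric neuron and glia markers passed for 0 of 6. In irradiated wild type, replicate 3 had the lowest striated muscle sum, 1019 against 28311 and 70156 in the other two, and also the lowest squamous and adipocyte sums and the highest fibroblast, macrophage and endothelium sums, beside the highest Dcn, Bgn, Lum and Prelp signals. The tissue expressed its colonocyte markers on every array, with 11 or 12 of 12 above the array median. The part of these cell types in the proteoglycan values was not tested.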

How the data were processed

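Total RNA of 10 tissue samples was isolated with Trizol, labelled with biotin and hybridised to Affymetrix arrays, per the labels' protocols. The authors computed signals with MAS5, per the submitters' processing notes, which name no version. The deposited values run from -4.24 to 15.79 and were read as log2 signals, because their antilogs share 1 trimmed mean on every array. They were used without further normalization or pseudocount. MAS5 detection calls were not analysed here, and dim MAS5 signals scatter widely. Precision is limited by how few arrays there are.

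The platform annotation gave 1 gene to 34945 of 45101 probe sets, several to 932 and none to 9160, beside 64 controls; 34741 matched a RefSeq table of GRCm38.p6 by gene ID. Each gene was read from its brightest probe set. Genes that exceeded the array median on 2 arrays or more entered the tests (12568 genes, 6 of the 7 members). A linear model in limma 3.58.1 (R 4.3.3) gave each group its own mean, used all 10 arrays and left 6 residual degrees of freedom; it had a variance trend and Benjamini-Hochberg adjustment at 0.05, and was tested on simulated data. P-values set each difference against the spread between samples within groups, pooled over the groups and adjusted with information from all genes.

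The members, 6 pathway lists, 10 marker lists, the comparisons and the alternatives were chosen with earlier results of these data known. Named were all members, up to 3 genes of a list with the smallest p for irradiation averaged over genotypes, and the genes nearest in profile (8 to the member mean, 2 to each member). In genotype comparisons and the interaction the 2 members with the smallest p are given in full. Deviations from the group mean correlated at r = -0.20 to 0.16 over 13 pairs of same-numbered arrays of different groups. Over 24 pairs with different numbers they correlated at -0.25 to 0.24. In groups of 2 the deviations mirror each other, so these values cannot show whether numbers pair mice. The labels do not say that they do. Alternatives were quantile normalization, pseudocounts of 16 and 64, other filters, no trend, array weights, other uses of probe sets, fits of only the groups compared, the replicate number as a block, the sex pattern, and leaving out each array.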

Additional observations from a re-analysis of the deposited data

How the results depend on the processing

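Of 402 recomputed member differences (18 differences, each under 21 to 23 alternatives), 384 kept their direction and their side of the threshold, 12 lost the threshold, 4 passed it and 2 reversed. Leaving out an array of a group not compared leaves the difference itself unchanged and alters only its error. Differences uncalled at first counted as kept while they stayed uncalled. The 384 is therefore partly set by the design and is not a measure of robustness. Dcn, Bgn and Lum stayed past the threshold under every alternative run, in knockout (1.84 to 2.38, 1.82 to 2.23 and 2.97 to 3.43) and in wild type (2.15 to 2.55, 2.24 to 2.65 and 3.04 to 3.91). The 2 reversals were those of Lum between genotypes after irradiation, 0.0710 with the sex pattern as a covariate and 0.0710 among female-pattern arrays, both resting on 1 female-pattern knockout array; the cause was not tested. The count of members called in wild type was 3 with the sex pattern as a covariate, and 5 to 6 when 1 array was left out. In knockout it was 3 to 5 when 1 array was left out, 3 without replicate 1 or 2 of unirradiated knockout. With the replicate block, 5 members were called higher in wild type, where 11.2% of all genes were, and 4 in knockout, where 10.9% were. Aspn was lost in knockout (0.92, adjusted p = 0.064), and the block by itself changed no other member's call. In the genotype comparisons and the interaction, 0 members were called under every alternative run. With every probe set tested on its own, 8 of 11 member probe sets were called higher in knockout and 9 of 11 in wild type. Of all 22144 probe sets tested, 2532 were called higher in knockout and 2954 in wild type. The 9 take in the Dcn probe set that was dim without irradiation, whose differences are a description. Over all genes tested the count in knockout was 2957, and 4499 with every probe set, 1352 among male-pattern arrays, 1706 with the sex pattern and 1189 to 3596 with 1 array left out. In wild type it was 3028, and 1995 with the block, 16 with the sex pattern and 1323 to 3469 with 1 array left out. Between genotypes it was 0 after irradiation (0 to 3 with 1 array left out) and 154 without it (236 with every probe set, 70 with the block, 41 to 255 with 1 array left out). For the interaction it was 26, and 42 with every probe set, 10 without the trend, 16 with a pseudocount of 64, 3 with the block, 4 with the sex pattern and 14 to 35 with 1 array left out. Dim signals, those of Fmod, Epyc and the dimmer Prelp and Dcn probe sets, lay mostly below the array median and are imprecise.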
